A study of Mus musculus with 14 samples.

Results

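Mtus1, Adgra2 and Cyp4f18 are 3 protein-coding genes of mouse chromosome 8 that were selected on their levels: near absent in T cells of B6 mice and expressed in T cells of triple congenic (TC) mice. They are 3 of the 26683 gene symbols in the count matrix, and all 3 were among the 13427 genes with enough reads to test. The study took spleens of 8-month-old female mice of these strains. B6 is C57BL/6J, the reference laboratory strain, and TC (B6.NZM-Sle1NZM2410/AegSle2NZM2410/AegSle3NZM2410/Aeg/LmoJ) is a lupus-prone strain that carries the Sle1, Sle2 and Sle3 intervals of the NZM2410 strain on the B6 background. As general knowledge of this strain, those intervals lie on chromosomes 1, 4 and 7, and none is named for chromosome 8. From each of 4 B6 and 3 TC mice, CD4+ CD44+ CD162lo/- PD-1+ cells (Tfh, T follicular helper cells, which support antibody responses) and CD4+ CD44- cells (Tn, naive cells) were sorted. Each mouse gave 1 library of each kind, so that there were 14 RNA-seq libraries in 4 groups.

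Mtus1 encodes a microtubule-associated protein that also binds the angiotensin II type 2 receptor and is known as a tumour suppressor candidate. Adgra2, also called Gpr124, is an adhesion G protein-coupled receptor. In blood vessels of the brain it acts with the membrane protein Reck to let cells respond to Wnt7 ligands, and it is best known from endothelial cells and pericytes, not from T cells. Cyp4f18 is a cytochrome P450 that hydroxylates the lipid leukotriene B4, a chemoattractant of neutrophils, and is best known from neutrophils.

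On the GRCm38 build, Adgra2 lies at chr8:27085583-27123436 on the plus strand, Mtus1 at chr8:40990914-41133726 on the minus strand and Cyp4f18 at chr8:71988482-72009626 on the minus strand. Adgra2 and Mtus1 are 13.9 Mb apart, and Mtus1 and Cyp4f18 are 30.9 Mb apart, so the genes are not neighbours. GENCODE M21 lists 14 transcripts for Mtus1, 4 for Adgra2 and 3 for Cyp4f18, with 10078, 5775 and 1855 exonic bases. Counts per gene do not tell these transcripts apart.

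Of the 3 genes only Cyp4f18 was matched in the RefSeq promoter table (GRCm38.p6). Its window of 300 bases around the start, on the minus strand at chr8:72009577-72009876, is shown because it is the start region of the gene that varied most between TC mice. Capitals mark the CCAAT box, read on the opposite strand as ATTGG, and the GC box GGGCGG, read on the opposite strand as CCGCCC.
Cyp4f18: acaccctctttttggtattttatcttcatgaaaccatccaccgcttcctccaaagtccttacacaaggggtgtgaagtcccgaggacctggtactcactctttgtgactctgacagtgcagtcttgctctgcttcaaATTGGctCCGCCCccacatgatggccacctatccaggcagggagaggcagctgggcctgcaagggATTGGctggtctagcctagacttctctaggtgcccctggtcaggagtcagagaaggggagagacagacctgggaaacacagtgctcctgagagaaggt
The CCAAT box letters stand at -113 to -109 and at -48 to -44 from the start, and the GC box letters at -106 to -101. TATAAA was found on neither strand. Over all 32851 promoters of the table, 37.4% hold CCAAT, 35.7% GGGCGG and 13.6% TATAAA on either strand, and none of these motifs overlaps another in this window. The window has 54.0% G and C, against a median of 52.7%, and 3 CpG, against a median of 7. The window is the sequence of the reference genome, which is that of B6, and the TC sequence was not read here. No binding or methylation measurement of the window was available.

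Library totals ran from 15162309 to 20191558 counts, so that 3 counts, taken as the floor of detection, were 0.149 to 0.198 CPM (counts per 1000000 counts of the library). The sort markers matched the labels: Pdcd1, which encodes PD-1, had mean CPM of 688 and 7.97 in Tfh and Tn of B6, and of 494 and 5.54 in those of TC. In bulk libraries, fewer cells that express a gene and less RNA per cell cannot be told apart. The labels name no sequencing batch, so any batch that followed strain and the strain itself cannot be told apart.

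Mtus1 took the most reads of the 3 in TC. Its CPM in TC Tfh were 85.6, 89.9 and 86.8 in mice 1, 2 and 4, and in TC Tn 154, 148 and 153. In B6 it had 7, 12, 13 and 15 counts in the 4 Tfh libraries and 0, 2, 2 and 2 in the 4 Tn libraries. The group means were 87.4 ± 2.21 CPM (SD, n = 3) in TC Tfh and 152 ± 3.17 (n = 3) in TC Tn, and in B6 they were 0.626 ± 0.182 (n = 4) for Tfh and 0.0815 ± 0.0543 (n = 4) for Tn. Every TC library stood above every B6 library, which follows from the choice of the gene. All 4 B6 Tn libraries were under the floor while no B6 Tfh library was. The ratio of TC to B6 was 139 in Tfh (95% exact counting interval 105 to 190) and 1910 in Tn (877 to 5210).

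Adgra2 was all but absent from B6. Its counts were 2, 0, 2 and 2 in B6 Tfh and 3, 0, 0 and 0 in B6 Tn. In TC Tfh it stood at 24.8, 30.2 and 20.7 CPM in mice 1, 2 and 4, and in TC Tn at 17.9, 24.6 and 22.7. The means were 25.2 ± 4.75 CPM (n = 3) in TC Tfh and 21.7 ± 3.44 (n = 3) in TC Tn, against 0.0807 ± 0.0538 (n = 4) and 0.0371 ± 0.0743 (n = 4) in B6. The strains did not overlap, which follows from the choice of the gene, and the TC cell types did. With 6 B6 Tfh counts in all, the ratio of TC to B6 was 313 (143 to 854), and with 3 B6 Tn counts it was 542 (185 to 2630).

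Cyp4f18 was the most variable of the 3 in TC. It had 1, 3, 1 and 4 counts in B6 Tfh and 2, 0, 1 and 0 in B6 Tn. In TC Tfh its CPM were 38.6, 89.6 and 24.9 in mice 1, 2 and 4, and in TC Tn 24.2, 17.2 and 12.1. The means were 51.0 ± 34.1 CPM (n = 3) and 17.8 ± 6.10 (n = 3) in TC, against 0.119 ± 0.0795 (n = 4) and 0.0385 ± 0.0480 (n = 4) in B6. Mouse 2 was far above the other TC mice in Tfh and between them in Tn. The ratio of TC to B6 was 412 (216 to 901) in Tfh and 450 (153 to 2180) in Tn. All these intervals cover counting error only, not the spread between mice.

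**Figure D1:**
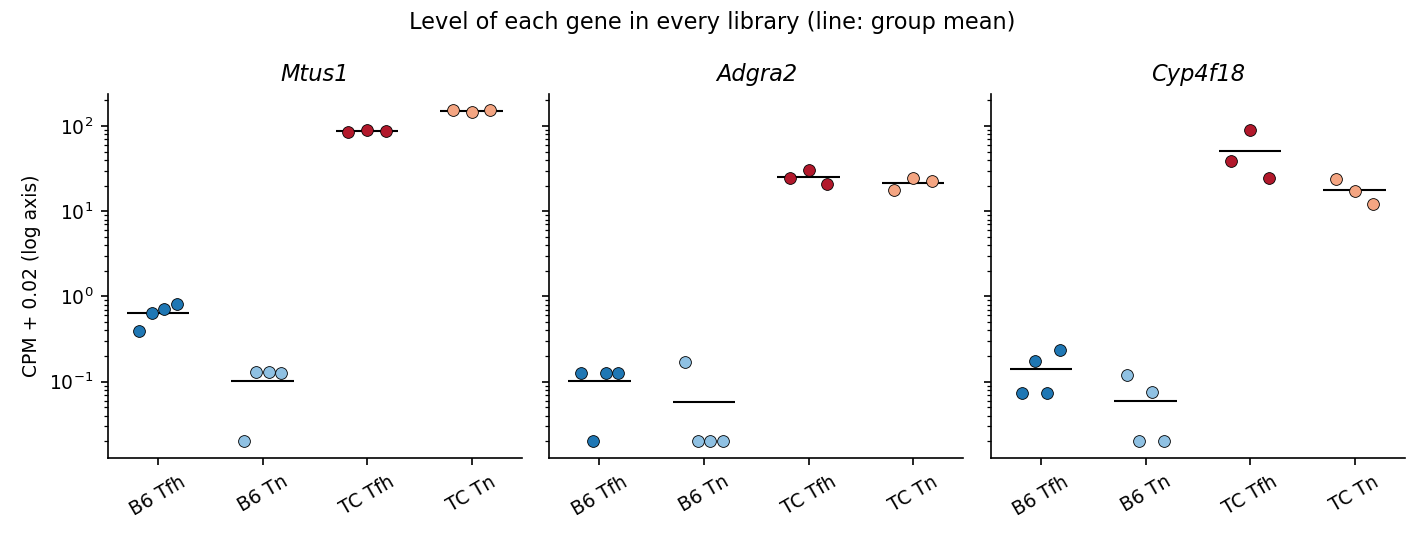
CPM of Mtus1, Adgra2 and Cyp4f18 in each of the 14 libraries (points) by strain and cell type, with the group mean as a line, on a log axis of CPM plus the small constant given there, so that libraries of 0 counts can be drawn. For each gene every TC library sits above every B6 library, which follows from how the genes were chosen, and the B6 libraries lie at or under 0.804 CPM.

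Because the genes were chosen for this contrast, no test of TC against B6 is given for them. Their fitted log2 differences describe their place among the 13427 genes tested. In Tn, Mtus1 ranked 1, Adgra2 2 and Cyp4f18 3 from the top, at 10.75, 8.84 and 8.56. In Tfh, Cyp4f18 ranked 2, Adgra2 4 and Mtus1 9, at 8.64, 8.17 and 7.10. These fitted values rest on B6 groups of a few counts and are not bounds.

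Between genes, levels compare only per length. In TC Tfh, Cyp4f18 had 27.5 CPM per kb of exon, Mtus1 8.68 and Adgra2 4.37, and in TC Tn the values were 9.61, 15.1 and 3.76. Cyp4f18 in TC Tfh stood above 85.4% of the 13148 genes with a length, and Adgra2 above 39.8%. Mtus1 stood above 56.1% in Tfh and 73.1% in Tn. Per length, then, Adgra2 was an expressed gene of below-median level in TC, and the mean of Cyp4f18 in TC Tfh was among the higher genes. That mean, 51.0 ± 34.1 CPM, is raised by mouse 2, at 89.6 CPM against 38.6 and 24.9 in mice 1 and 4. Its place without mouse 2 was not computed.

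The contrast of Tfh with Tn was not used to choose the genes and was tested with edgeR's quasi-likelihood test, with Benjamini-Hochberg adjustment over all genes tested. Within TC, 2 of the 3 genes passed an adjusted p of 0.05, where 66.1% of all genes did, so the count itself is no result about them. Mtus1 was lower in Tfh than in Tn, by 1.87-fold (log2 difference -0.91, SE 0.069, edgeR adjusted p = 2.16e-09), in 3 of 3 mice and with no overlap. How many of all genes separated in this way was not counted. Cyp4f18 went the other way, 2.64-fold higher in Tfh (log2 1.40, SE 0.407, edgeR adjusted p = 0.00982), also in 3 of 3 mice. The groups of Cyp4f18 hardly separated: the lowest Tfh library had 24.9 CPM and the highest Tn library 24.2. Without TC Tfh mouse 2 the log2 difference of Cyp4f18 fell to 0.75, with an edgeR adjusted p of 0.0177.

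Adgra2 differed by a log2 value of 0.11 between TC Tfh and Tn (SE 0.176, edgeR adjusted p = 0.601), with a 95% interval of -0.24 to 0.46. It was higher in Tfh in mice 1 and 2, at ratios of 1.38 and 1.23, and lower in mouse 4, at 0.916. The ratios of Tfh to Tn in the same mice were 0.554, 0.606 and 0.568 for Mtus1, a narrow range, and 1.59, 5.21 and 2.06 for Cyp4f18, a wide one. The coefficients of variation over TC mice showed the same order, 2.53% in Tfh and 2.09% in Tn for Mtus1, 18.8% and 15.9% for Adgra2, and 66.8% and 34.2% for Cyp4f18.

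**Figure D2:**
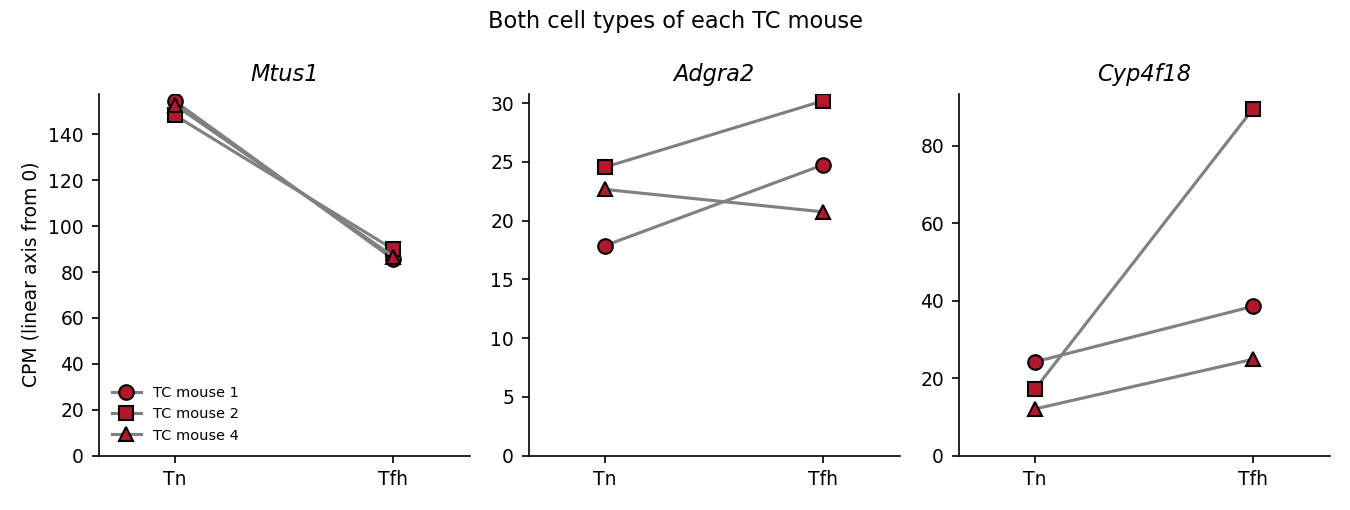
CPM of each gene in Tfh and Tn of the 3 TC mice, with a line joining the 2 libraries of a mouse and axes starting at 0. Mtus1 falls from Tn to Tfh in each mouse, Adgra2 changes in both directions, and Cyp4f18 of mouse 2 reaches 89.6 CPM in Tfh.

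The few B6 counts still held a difference between cell types for Mtus1. Within B6 it was 6.71-fold higher in Tfh than in Tn (log2 2.75, SE 0.401, edgeR adjusted p = 7.81e-06), from 47 counts against 6, with every Tfh library above every Tn library. In this comparison 70.3% of all genes were called. Adgra2 had 6 B6 counts in Tfh against 3 in Tn, and Cyp4f18 9 against 3. Both passed the filter on low counts only through TC, so a difference between B6 cell types was not detectable for them, and no test of it is given.

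Mtus1 had opposite Tfh to Tn ratios in the strains, and that difference was itself tested. The interaction of strain and cell type was -3.65 on the log2 scale for Mtus1 (SE 0.395, edgeR adjusted p = 2.86e-05). In this comparison 2.32% of all genes were called. For Adgra2 and Cyp4f18 the B6 counts are too few to inform an interaction, and no test of it is given. The interaction of Mtus1 is the difference between the strain contrasts in Tfh and in Tn, on which the genes were chosen. It shares all 14 libraries with the choice, so its test is not independent of it. Its B6 side rests on the 47 and 6 counts above.

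Markers of other cell types were summed per library beside these levels, since Cyp4f18 is best known from neutrophils and Adgra2 from endothelial cells and pericytes. The 10 neutrophil markers summed to 2.13 to 6.66 CPM in TC Tfh and 0.161 to 0.437 in TC Tn, against 2.53 to 20.8 in B6 Tfh and 0.549 to 3.17 in B6 Tn. In TC Tfh, S100a8 and S100a9 were at 0, and 2 of the 10 were detected. B6 libraries with neutrophil sums of up to 20.8 CPM had Cyp4f18 at or under 0.215 CPM. A low B6 level was a condition of the choice, so this is a description. The part of other cells in the TC level was not tested. The B cell markers summed to 76.1 to 104 CPM in TC Tfh and 110 to 121 in B6 Tfh, and to 1.17 to 2.18 in TC Tn and 1.34 to 2.43 in B6 Tn.

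The 5 endothelial markers read, of 6 in the list, summed to 147 to 154 CPM in TC Tfh and 271 to 294 in TC Tn, against 175 to 188 and 278 to 368 in B6. Tek was at 0 in all groups, Cdh5 in TC Tfh and Kdr in TC Tn. The 4 stromal and pericyte markers read, of 6, summed to 2.18 to 2.51 CPM in TC Tfh and 0.161 to 0.601 in TC Tn, against 1.61 to 2.85 and 0.273 to 0.446 in B6. Adgra2 was near absent in B6 libraries with these sums and at 17.9 CPM or more in every TC library. Here too the low B6 level was a condition of the choice, and the part of other cells was not tested. Monocyte and macrophage markers reached 7.50 CPM in TC Tfh and 13.4 in TC Tn, and 17.6 and 13.2 in B6.

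Fos, an immediate early transcription factor gene, was 1 of the 5 genes most like Cyp4f18. Both genes had the same order over the TC mice in Tfh, but not in Tn. In TC Tfh of mice 1, 2 and 4, where Cyp4f18 had 38.6, 89.6 and 24.9 CPM, Fos had 672, 957 and 278. In TC Tn, with 24.2, 17.2 and 12.1 CPM of Cyp4f18, Fos had 349, 837 and 128. Mouse 4 was lowest for both genes in both cell types, while mouse 2 was highest in Tfh for both and in Tn for Fos only. In B6 Fos had 5.88 to 9.17 CPM. Junb, another such gene, had 1080, 1140 and 627 CPM in TC Tfh and 1150, 1030 and 523 in TC Tn. The B cell marker sum in TC Tfh was also highest in mouse 2, at 104 CPM against 80.1 and 76.1. The part of any of these in the Cyp4f18 level was not tested.

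**Figure D3:**
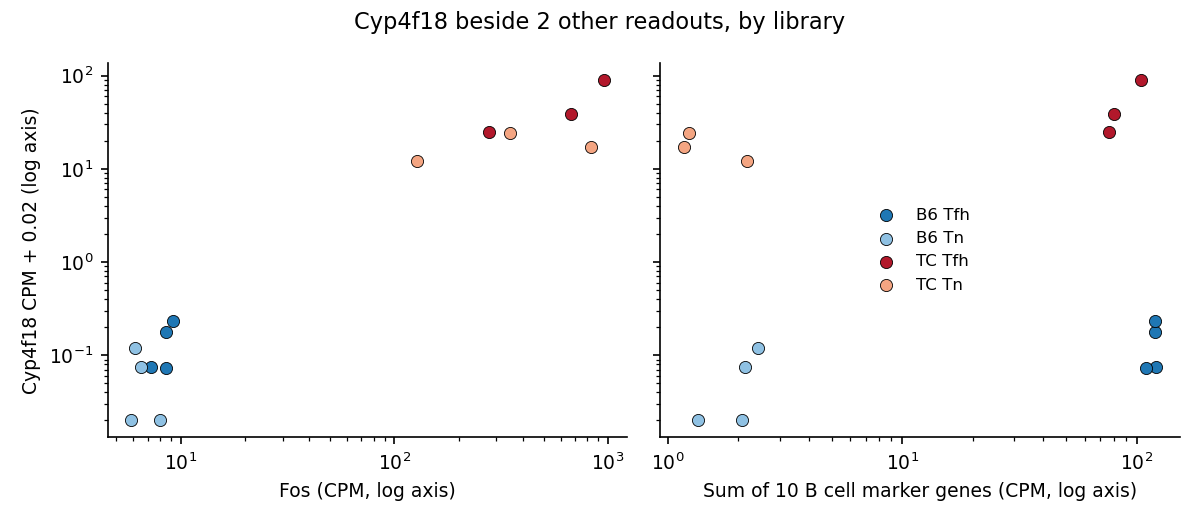
Cyp4f18 in CPM plus a small constant, on a log axis, against Fos in CPM (left) and the summed CPM of 10 B cell markers (right), both on log axes, with 1 point per library coloured by group. The TC libraries stand above the B6 libraries for Fos. B6 Tfh libraries have B cell sums of 110 to 121 CPM and Cyp4f18 at or under 0.215 CPM, a low level that was a condition of the choice.

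Overlapping genes were read because the strand setting of the counting is not given in the sources used here. Brf2, a transcription factor subunit of RNA polymerase III, overlaps the end of Adgra2 on the opposite strand, and had a mean of 9.48 CPM in TC Tfh and 11.7 in B6 Tfh. Zfp961, a zinc finger gene, overlaps the end of Cyp4f18 on the opposite strand, and had 28.7 CPM in TC Tfh and 36.1 in B6 Tfh, and 36.0 in TC Tn and 29.8 in B6 Tn. Neither was near absent in B6. The antisense gene Gm16192 lies within Mtus1, and had 5 counts in TC Tfh, 23 in TC Tn and none in B6. Of the 50-base words in annotated transcripts, 0% of Mtus1 and of Adgra2 and 0.378% of Cyp4f18 (7 words, shared with Cyp4f17) occur in another gene on the same strand. On the opposite strand the shares were 8.95%, 0.403% and 4.81%. Reads of these stretches cannot be assigned to 1 gene without strand.

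The nearest tested neighbours of the 3 genes were expressed in both strains, and changed far less or not at all. Of the 693 other chromosome 8 genes tested, 360 (51.9%) were called between TC and B6 in Tfh, where 49.7% of all genes were, and 358 (51.7%) in Tn, where 52.0% of all genes were. In Tfh 164 were higher and 196 lower in TC, and in Tn 179 and 179. Calls at any fold were thus about as frequent on chromosome 8 as over all genes. On chromosomes 1, 4 and 7, which carry the Sle intervals, the shares were 52.3, 50.1 and 57.3% in Tfh and 50.5, 52.2 and 57.3% in Tn. Called differences over 4-fold made up 2.45% of the other chromosome 8 genes in Tfh and 2.89% in Tn. On chromosomes 1, 4 and 7 they made up 4.19, 2.55 and 4.99% in Tfh and 3.83, 2.55 and 4.49% in Tn. On the remaining chromosomes they ran from 0.615 to 2.83% in Tfh and from 0.669 to 3.26% in Tn.

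Around Mtus1, 6 of 9 tested genes within 1 Mb were called in Tfh and 4 of 9 in Tn. Asah1, the acid ceramidase, was lower in TC, with log2 differences of -0.73 in Tfh (SE 0.0768) and -1.03 in Tn (SE 0.0801, edgeR adjusted p = 1.38e-06 and 2.7e-08). Mtmr7, a phosphoinositide phosphatase, was at 0.96 CPM in B6 Tn and 0.244 in TC Tn, a log2 difference of -1.97 (SE 0.392, edgeR adjusted p = 0.000411). In Tfh it differed by -0.29 (adjusted p = 0.135). Vps37a, an endosomal sorting gene, was higher by 0.30 and 0.39 (edgeR adjusted p = 0.000314 and 1.97e-05). Cnot7 differed by 0.16 and 0.09, Pcm1 by 0.23 and 0.04, and Frg1 by -0.33 and -0.39. None of the 6 approached the change of Mtus1.

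Around Adgra2, 4 of 9 genes were called in Tfh and 1 of 9 in Tn. Erlin2, an endoplasmic reticulum gene, differed by -0.04 and -0.06 (edgeR adjusted p = 0.551 and 0.363), and Prosc by -0.17 and -0.07. Zfp703 was higher by 0.34 in Tfh (edgeR adjusted p = 0.00116) and Rab11fip1, a recycling endosome gene, lower, at -0.28 and -0.48 (edgeR adjusted p = 0.000806 and 6.19e-06). Eif4ebp1, a translation inhibitor, differed by -0.28 and -0.11, neither called. The third tested gene on the higher side, Rnf122, lies 3990 kb away and was higher by 0.52 in Tfh (edgeR adjusted p = 0.000342).

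Around Cyp4f18 genes were denser: 29 of 44 (65.9%) were called in Tfh and 28 of 44 (63.6%) in Tn. Zfp617 was lower in TC, with log2 differences of -1.10 in Tfh (SE 0.150) and -0.99 in Tn (SE 0.148, edgeR adjusted p = 1.6e-05 and 2.79e-05), from 12.4 to 5.80 CPM in Tfh. The other zinc finger genes nearby, Zfp882 and Zfp709, differed by -0.06 and -0.15 in Tfh and 0.10 and 0.12 in Tn, none called. Tpm4, a tropomyosin, differed by -0.14 and -0.32, Rab8a by -0.16 and -0.10, and Hsh2d by -0.17 and -0.17. Within 1 Mb of any of the 3 genes, 62.9% of 62 genes were called in Tfh and 53.2% in Tn, and within 2 Mb 65.9% and 61.8% of 123. Not all genes within 2 Mb of Cyp4f18 changed little: the pseudogene Crry-ps was higher in TC by 7.64 and 5.54. In the 4 Mb of chromosome 8 from 68 to 72 Mb, at whose upper end Cyp4f18 lies, 62 of 90 genes (68.9%) were called in Tfh and 63 (70.0%) in Tn.

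**Figure D4:**
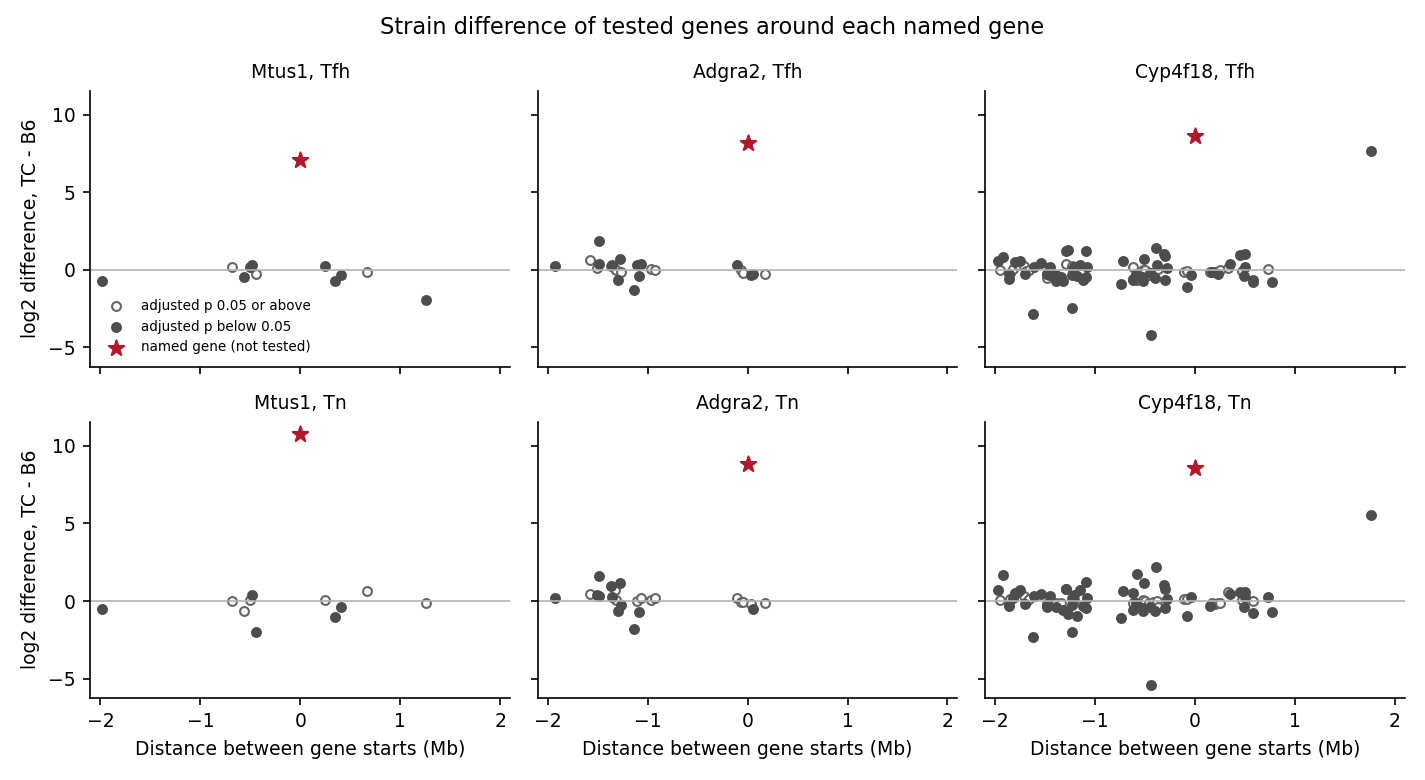
Fitted log2 difference of TC and B6 for each tested gene within 2 Mb of Mtus1, Adgra2 and Cyp4f18, against the distance between gene starts in Mb, in Tfh (top) and Tn (bottom), with filled points for genes at an adjusted p below 0.05 and a star for the named gene. The stars stand at 7.10 to 10.75, and most neighbours lie near 0. Around Cyp4f18, Crry-ps stands at 7.64 in Tfh and 5.54 in Tn, and Tmem221 at -4.20 and -5.43.

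The same pattern was counted over the genome with 1 rule: a mean below 1 CPM in both B6 groups, and in TC at least 1 CPM and at least 8 times the B6 mean plus 0.1. Of 12591 genes with a mean of at least 1 CPM in a group, 55 (0.437%) were on in TC by this rule, and 31 (0.246%) off in TC by the reverse. Chromosome 8 had 7 of 652 (1.07%) on, 3 of them the selected genes, and 3 (0.46%) off. Chromosome 18 had 4 of 286 on (1.40%), chromosome 1 had 8 of 757 (1.06%), chromosome 4 had 6 of 741 (0.81%) and chromosome 7 had 5 of 948 (0.527%), with 8 off. These counts describe 2 inbred strains and were not tested.

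The members are the only protein-coding genes among the 7 of chromosome 8. The others are 3 pseudogenes and 1 locus of unknown type: Gm1840 at 23.7 CPM in TC Tfh and 0.97 in B6 Tfh, Crry-ps at 4.10 and 0.0134, Gm16589 at 1.73 and 0.0669, and Gm37352 at 11.1 and 0.494. Just inside the 8-fold limit was Gm16589, at 10.4 times, and just outside were Gm26887 at 6.87 and Gm26759 at 4.59, while Adgra2, Cyp4f18 and Mtus1 stood at 158, 233 and 837. By CPM in the higher TC group, Mtus1 ranked 1, Cyp4f18 2 and Adgra2 4 of the 55, with Irgc1 of chromosome 7 at rank 3 (44.7 CPM). These ranks are not scaled by gene length, so long genes such as Mtus1 stand higher than they would per kb.

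Genes of chromosome 8 with the reverse pattern were Lpl, Tmem221 and the pseudogene Rpl31-ps23. Lpl, lipoprotein lipase, had 3.85 ± 2.01 CPM in B6 Tfh (n = 4) and 0.0387 ± 0.0335 in TC Tfh (n = 3), and no counts in Tn. Tmem221, a membrane protein gene less than 1 Mb from Cyp4f18, had 1.97 ± 0.565 and 5.81 ± 0.656 CPM in Tfh and Tn of B6 (n = 4), against 0.101 ± 0.122 and 0.131 ± 0.0804 in those of TC (n = 3). Strain differences near Cyp4f18 thus ran in both directions.

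**Figure D5:**
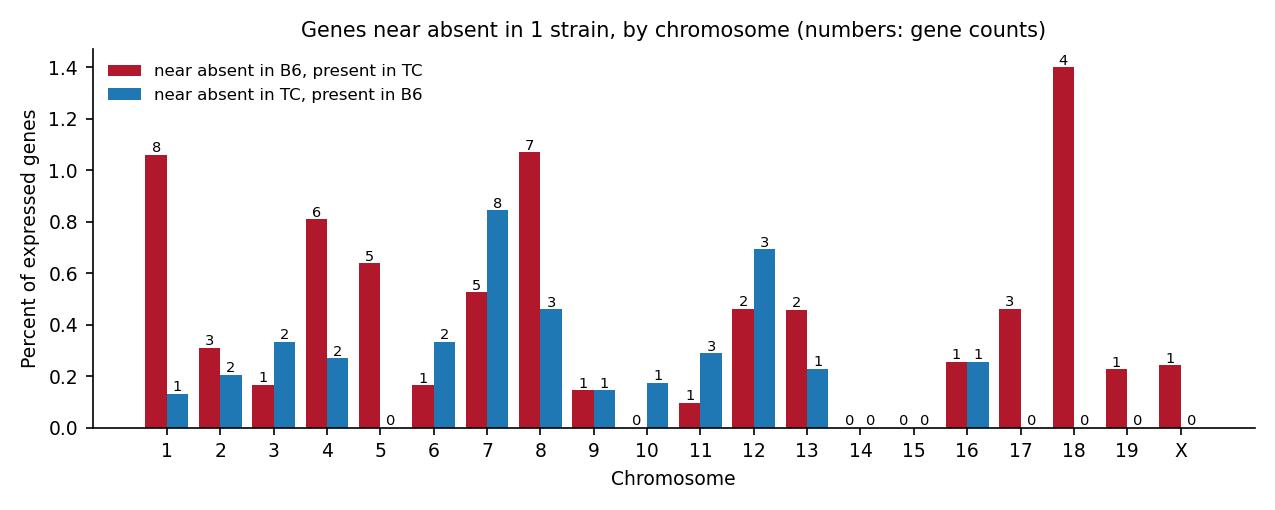
Percent of expressed genes on each chromosome that were near absent in B6 and present in TC, or near absent in TC and present in B6, with the number of genes printed over each bar. Chromosome 8 has 7 of the first kind, 3 of them Mtus1, Adgra2 and Cyp4f18, and 3 of the second.

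Genes of the pathways around each of the 3 were taken from lists, and all their values below are log2 differences of TC and B6, first in Tfh and then in Tn. The counts called in each list are to be read against the 49.7% of all genes called in Tfh and the 52.0% in Tn. Of 16 cytochrome P450 4 family genes and their reductase, 5 were tested; in Tfh 1 was higher and 2 lower in TC, and in Tn 3 higher and 1 lower, from so few genes that a share says little. The median log2 difference was 0.133 in Tfh and 0.461 in Tn, against -0.016 and -0.00703 over all genes. Cyp4f13 was higher by 0.33 and 0.47 (edgeR adjusted p = 0.000516 and 1.78e-05), and Cyp4v3, a fatty acid hydroxylase, lower, at -0.39 and -0.58 (edgeR adjusted p = 0.0062 and 0.00144). Cyp4v3 also lies on chromosome 8. Por, the reductase that passes electrons to these enzymes, was lower in Tfh at -0.21 (edgeR adjusted p = 0.0127) and differed by 0.03 in Tn. Cyp4f16 was higher by 0.69 in Tn (edgeR adjusted p = 0.000409).

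The genes that make and sense the substrate of Cyp4f18 had very unequal levels. Of 16 leukotriene and eicosanoid genes 7 were tested; in Tfh none was higher and 2 lower, and in Tn 1 higher and 4 lower (all genes 49.7% and 52.0% called), with medians of -0.14 and -0.202. Alox5, the first enzyme of leukotriene synthesis, had 1 count over all 14 libraries, and Ltb4r1, the leukotriene B4 receptor, 28. Lta4h, the enzyme that makes leukotriene B4, had 109 and 162 CPM in Tfh and Tn of B6 and 96.1 and 144 in those of TC, and was lower in TC at -0.19 and -0.20 (edgeR adjusted p = 0.0451 and 0.0326). Alox12 was lower in TC Tfh at -1.45 (edgeR adjusted p = 0.000801). Ptgr1, an oxidoreductase of prostaglandins and leukotriene B4, was higher in TC Tn by 1.87 (edgeR adjusted p = 0.00206). Cysltr2, a receptor of cysteinyl leukotrienes, was lower in Tn at -0.79 (edgeR adjusted p = 0.0293) and Ephx1, an epoxide hydrolase, at -0.30 (edgeR adjusted p = 0.00369).

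Of 16 other adhesion G protein-coupled receptors 6 were tested; in Tfh 1 was higher and 1 lower in TC, and in Tn 2 were higher, in both a smaller share than the 49.7% and 52.0% of all genes. Adgrl1, a latrophilin, was higher by 0.82 and 1.00 (edgeR adjusted p = 2.82e-05 and 2.91e-06). Adgra3, the nearest relative of Adgra2 in the list, was higher in Tn by 0.80 (edgeR adjusted p = 0.0102), and differed by -0.16 in Tfh (adjusted p = 0.805). Adgre5, which encodes CD97, was lower in Tfh at -0.40 (edgeR adjusted p = 0.00269). The list's medians were -0.574 in Tfh and 0.0291 in Tn. All tested receptors of the list but Adgra3 lie on chromosome 8 themselves, and were also counted among its other genes above.

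The partners of Adgra2 were present only in part. Wnt7b had 0 counts in every library, which allows a level of up to 0.149 to 0.198 CPM, and Wnt7a was not analysed here. Reck, its partner at the membrane, had 7.63 and 4.45 CPM in B6 Tfh and Tn and 8.31 and 5.17 in TC, and was not called. Of 24 Wnt genes 18 were tested; in Tfh 7 were higher and 1 lower in TC, and in Tn 6 higher and 3 lower, with medians of 0.222 and 0.0903. These shares are near or under those of all genes (49.7% and 52.0%), so the counts are no result about the list. Dvl3 was higher by 0.57 and 0.79 (edgeR adjusted p = 1.35e-05 and 2.93e-07) and Dvl1 by 0.41 and 0.69 (edgeR adjusted p = 0.000263 and 1.08e-06), both cytoplasmic relays of Wnt receptors. Apc, which targets beta-catenin for destruction, was higher by 0.43 and 0.48 (edgeR adjusted p = 0.00018 and 5.11e-05), and Ctnnb1, beta-catenin itself, lower, at -0.21 and -0.41 (edgeR adjusted p = 0.0016 and 1.94e-06).

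Of 19 angiotensin and microtubule plus-end genes 13 were tested; in Tfh 1 was higher and 2 lower in TC, and in Tn 2 higher and 3 lower, with medians of 0.0408 and 0.0131, smaller shares than the 49.7% and 52.0% of all genes. Agtr2, the receptor that the Mtus1 protein binds, was not analysed here. Mapre3 was higher by 0.28 and 0.41 (edgeR adjusted p = 0.0106 and 0.00377), and Mapre1 lower, at -0.12 and -0.29 (edgeR adjusted p = 0.0368 and 4.6e-05), both microtubule plus-end binding proteins. Stmn1, a microtubule destabilizer, was lower, at -0.51 and -0.53 (edgeR adjusted p = 0.0134 and 0.00259). Ptpn6, the phosphatase SHP-1, was higher in Tn by 0.19 (edgeR adjusted p = 0.0232). Mtus2, the paralogue of Mtus1, had 2.90 and 3.47 CPM in B6 Tfh and Tn and 4.12 in both TC groups.

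The genes most like each of the 3 were taken by Pearson's r of log2 CPM (prior count 2) over the 14 libraries, which fall into 2 strains and share 7 mice, so r is a description only. For Mtus1 they were Gm8802 (0.99), Akap8l (0.986), Clk4 (0.985), Safb2 (0.984) and Zc3h7a (0.983). For Adgra2 they were Uevld (0.989), Spr-ps1 (0.988), Tubgcp5 (0.987), RP24-347B12.1 (0.986) and Zcchc7 (0.985). For Cyp4f18 they were Slc6a16 (0.987), Spr-ps1 (0.983), Tubgcp5 (0.983), Fos (0.982) and Gm20746 (0.98). The 3 genes had r of 0.964 to 0.983 among themselves, which follows from their choice for the same strain pattern. Above 0.9 stood 494 genes for Mtus1, 494 for Adgra2 and 373 for Cyp4f18, so that an r above 0.9 was not particular to the 3.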

How the data were processed

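RNA of sorted splenic Tfh and Tn of 4 B6 and 3 TC mice was sequenced, 14 libraries in all, from a stranded kit per the labels' protocols. The authors deposited a table of raw read counts with gene symbols as its rows. Per the submitters' processing notes, STAR 2.7, the mm10 genome and DESeq2 were used. How reads were assigned to genes, with which annotation and strand setting, was not given in the sources used here. The reference genome is that of B6, and reads of TC alleles were aligned to it, which can lower TC counts. For Tn samples 1 label names Tfh, while titles and cell type labels name naive cells and were followed.

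Computed here from the counts were CPM over library totals, and tests with edgeR 4.0.16 in R 4.3.3. The 13427 genes that filterByExpr kept (count minimum 10) were scaled by TMM and fitted by robust quasi-likelihood with a mean for each of 4 groups. Calls are genes whose p, adjusted by Benjamini-Hochberg over all genes tested, was below 0.05. SE is the log2 difference over the square root of F, and intervals are 95%. This SE is approximate, and for Mtus1 in B6 and its interaction it was smaller than that of DESeq2. Positions came from GENCODE M21, where 24746 symbols matched, 618 matched by synonym, 1275 did not match and 44 were ambiguous. Same-numbered libraries come from 1 mouse, since the protocol sorts both populations from each animal, and their deviations from group means correlated at 0.0395 to 0.299 in B6 and 0.207 to 0.257 in TC. No libraries of a group looked like duplicates (chi-square per degree of freedom 4.99 to 18.8). Counts of 13427 genes were also simulated from means over all libraries, with 50 genes changed in TC Tfh at each fold. For Tfh against Tn in TC, the fit recovered 70% of 1.5-fold, 78% of 2-fold and 100% of 4-fold and 8-fold changes. The real contrast had far more called genes, so these rates need not hold for it.

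The members and the gene lists were chosen with earlier results of these data known. Named were the 3 genes, the 3 nearest tested genes on each side, the 5 most alike, the chromosome 8 genes with either pattern, and up to 4 called genes of each list with the smallest adjusted p. Genes beyond these (Reck, Wnt7b, Fzd1, Fzd4, Fzd5, Fzd6, Fzd7, Lrp6, Lta4h, Alox5, Ltb4r1, Mtus2, Junb, Gm26887, Gm26759, Irgc1, the overlapping genes and the markers) were added after their values were seen. Alternatives were DESeq2 1.42.0, RLE scaling, no filter, a fold above 2, mouse as a block, other limits of the pattern, and each library left out in turn.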

Additional observations from a re-analysis of the deposited data

Results flagged for a closer look

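Mtus1 is a result to look at again because its Tfh to Tn difference had opposite signs in the strains. It was 6.71-fold higher in Tfh in B6 and 1.87-fold lower in Tfh in TC, and the interaction was -3.65 on the log2 scale (edgeR quasi-likelihood adjusted p = 2.86e-05). The B6 value rests on 47 and 6 counts, and the interaction shares all its libraries with the strain contrasts that chose the gene.

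For Mtus1 in B6 Tn and for Adgra2 in both B6 groups, each of 4 libraries, 1 library stood far from the other 3 by the spread of its group. For continuous values chance gives this in about 1 of 20 groups, a rate that need not hold for small tied counts such as these. The lowest Mtus1 library in B6 Tn and the lowest Adgra2 library in B6 Tfh were both at 0 CPM. The highest Adgra2 library in B6 Tn had 0.149 CPM. Each of these is a difference of 2 or 3 counts.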

How the results depend on the processing

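For the values that answer a comparison, 347 recomputed ones kept their direction and side of the threshold, 13 moved and 10 reversed. For single named genes 1205 stayed, 23 gained and 22 lost the call, and 8 reversed. The cause of these changes was not tested except where fewer libraries or a stricter rule made them. Mtus1 kept its calls, with log2 values over the libraries left out of -0.92 to -0.86 in TC, 2.32 to 2.94 in B6 and -3.83 to -3.22 for the interaction. Cyp4f18 kept its call in TC (0.75 to 1.77). With mouse as a replicate block the TC values were -0.91 for Mtus1, 0.10 for Adgra2 and 1.27 for Cyp4f18, and no call of these genes changed. Adgra2 in TC ran from -0.0112 to 0.27. The interactions of Cyp4f18 and Adgra2 and the B6 difference of Adgra2 rest on too few B6 counts to be tested. Their fitted values are given only to show how far they move. The Cyp4f18 interaction was -0.052 with the block and -0.0438 with DESeq2, and -0.82 to 0.51 over the libraries left out. The Adgra2 B6 difference was 0.78 and ran from 0.42 to 3.59. The Adgra2 interaction was -0.67 and ran from -3.48 to -0.31. Both Adgra2 values were at their extremes of 3.59 and -3.48 without B6 Tn mouse 1. Fitted strain differences in Tn ran from 8.48 to 11.65 for Adgra2, highest without B6 Tn mouse 1, and from 8.20 to 9.46 for Cyp4f18. Strain differences could not be fitted with the block, since each mouse has 1 strain.

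With a fold above 2 also asked, calls fell to 43 in Tfh and 56 in Tn on chromosome 8, to 5 and 8 within 1 Mb, and to 2 and 3 in the pathway lists. A 2 Mb window held 81 and 76 calls. List calls in Tn ran from 16 to 25 over the libraries left out, the lowest without TC Tn mouse 2. At 4 times in place of 8, 113 genes were on and 49 off. With libraries left out, signs of uncalled values crossed 0 for Zfp882 (-0.10 to 0.0202), Ephx1 (-0.065 to 0.0) and Adgra3 (-0.51 to 0.20) in Tfh, and for Pcm1 (-0.0023 to 0.077), Alox12 (-1.60 to 1.93) and Adgre5 (-0.047 to 0.0096) in Tn. Depth limits the B6 levels of all 3 genes, most of them at or under 3 counts a library.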
